A study of Mus musculus with 16 samples.

Results

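The genes described here build or travel along the cytoskeleton of the axon: Nefl, Nefm, Nefh, Ina, Stmn2, Tubb3, Map2, Map1a, Map1b and Kif5a. They were picked out of the count table by gene symbol. All 10 of these genes were found in the count table of 54532 entries, each under a single entry, and all 10 passed the filter on low counts that left 17736 genes for testing. Bulk brain RNA of female mice, 9 months old, was sequenced in 16 libraries, which formed 4 groups of 4. Both Ch25h genotypes, +/+ and -/-, were sampled with tau (Ch25h+/+ Tau+ and Ch25h-/- Tau+) and without it (Ch25h+/+ Tau- and Ch25h-/- Tau-). Ch25h is the gene of cholesterol hydroxylase, whose oxysterol product acts in innate immunity; Ch25h-/- mice lack the gene, and Tau+ is taken to mean that a tau transgene was present. The labels do not name the transgene's line or promoter, nor the cell type in which Ch25h was removed. They give frontal cortex as the tissue, whereas the series' own design text gives hippocampus. The series' title links CH25H to tau pathology, and the comparisons ask how tau, the loss of Ch25h and both together were reflected in these transcripts. Replicates carry separate labels, but nothing states separate animals, so p-values measure the spread between these samples.

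Neurofilaments are the intermediate filaments of neurons. They are copolymers of a light (Nefl), a medium (Nefm) and a heavy (Nefh) chain with alpha-internexin (Ina), and their number sets the calibre of large axons. Microtubules run beside them as tracks, made of tubulins such as the neuronal beta-tubulin encoded by Tubb3. Map2 mostly stabilises microtubules in dendrites, Map1a and Map1b bind microtubules in dendrites and axons, and Stmn2 is a stathmin that binds free tubulin in growing and injured axons. Kif5a is a neuronal kinesin heavy chain that carries cargo, neurofilaments among it, away from the cell body. Tau, the product of Mapt, is itself a microtubule-associated protein of axons.

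In short, no member passed the test for an effect of tau in either Ch25h genotype or for an interaction. In the mean over both tau states, Tubb3 was lower and Map2 and Map1b were higher without Ch25h. These are 3 of 10 members in a comparison where 20.3% of all genes tested passed, a share near that of the members. All 3 calls were lost when the library class described next entered the fit, a fit in which no gene was called for this comparison, the deleted Ch25h included.

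The libraries held 15530352 to 25602500 counts. Ribosomal RNA, counted as CT010467.1, made up 2289 to 5684 CPM (read counts scaled to a common library total, here the total count) in 7 libraries, all of them Ch25h-/-, and 111 to 475 CPM in the other 9. Those 9 comprised all Ch25h+/+ libraries and Ch25h-/- Tau+ replicate 1. Across genes, the Spearman correlation of level and GC content was -0.41 to -0.27 in the 7 rRNA-rich libraries and 0.08 to 0.39 in the 9 rRNA-poor ones. Ch25h loss and library class were therefore nearly the same split of the libraries, and their parts in a difference can hardly be told apart. Ch25h had 0 counts in all 8 Ch25h-/- libraries and 5 to 30 counts in each Ch25h+/+ library. Prnp, whose promoter drives some tau transgenes, rose from 783 ± 41.7 to 1677 ± 182 CPM with tau in Ch25h+/+ (SD, n = 4), and from 756 ± 53.8 to 1620.2 ± 175 CPM in Ch25h-/-. Mapt, the tau gene in the count table, was not called with tau. It went from 551 to 526 CPM in Ch25h+/+ (log2 fold change -0.07) and from 483 to 513 CPM in Ch25h-/- (0.09). Of 13 marker lists, the general neuron list summed to 5458 to 7146 CPM, the frontal cortex list to 659.8 to 830 CPM and the hippocampus list to 115 to 271 CPM over all libraries, with no marker at 0. Choroid plexus markers were uneven, at 14.9 to 2739 CPM, with low and high libraries in each group. In bulk tissue, fewer cells of a type and less RNA per cell cannot be told apart.

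Promoter sequences are shown for the 3 genes called with Ch25h loss, because Map2 and Map1b moved together and Tubb3 moved the other way. RefSeq promoters of build GRCm38.p6 were matched for 5 of the 10 genes. The 120 bases printed below, 5′ to 3′, lie just before the first annotated base of Tubb3 (chr8:123411304-123411423, plus strand) and Map2 (chr1:66175153-66175272, plus strand), and a short way before that of Map1b (chr13:99516603-99516722, minus strand), where they overlap an exon of the lncRNA Gm26559 on the opposite strand. Capitals mark a GC box, GGGCGG, or a TATA box with the letters TATAAA; these and the CCAAT box, named for its letters, were searched on both strands.
Tubb3: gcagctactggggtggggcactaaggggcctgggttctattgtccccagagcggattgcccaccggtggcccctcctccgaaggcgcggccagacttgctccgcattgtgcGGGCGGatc
Map2: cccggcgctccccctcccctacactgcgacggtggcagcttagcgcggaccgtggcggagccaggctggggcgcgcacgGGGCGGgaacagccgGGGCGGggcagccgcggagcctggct
Map1b: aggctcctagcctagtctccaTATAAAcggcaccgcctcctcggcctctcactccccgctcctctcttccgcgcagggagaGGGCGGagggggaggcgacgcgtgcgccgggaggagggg

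In the 250 bases before the RefSeq start, Map2 held 5 GC boxes, no CCAAT box and no TATA box. Tubb3 held 2 GC boxes and 1 CCAAT box in the same window, and Map1b held 1 GC box and 1 TATA box. The TATA box of Map1b is a match of letters whose first base lies at -99 from the RefSeq start, and its use was not tested. Of 32851 RefSeq promoters of that length, 32.7% held a GC box, 33.8% a CCAAT box and 12.4% a TATA box. GC content of the 250 bases was 81.2% for Map2, 68.0% for Tubb3 and 66.4% for Map1b, against a median of 52.4% over all promoters. All 3 are GC-rich promoters with a GC box, whichever way the gene moved. So are those of the other matched members, Ina (70.8% GC, 2 GC boxes) and Map1a (66.0%, 4 GC boxes), which were not called.

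Levels of different genes were compared as CPM per kilobase of exonic sequence, with CPM on library sizes scaled by TMM. Kif5a was the highest, at 496 ± 71.8 CPM per kilobase (SD over all 16 libraries), followed by Tubb3 at 175 ± 22.4 and Map1a at 112 ± 16.5. Nefl stood at 85.2 ± 5.88 and Ina at 63.2 ± 7.58. Map2 (51.7 ± 10.8), Stmn2 (48.8 ± 5.54), Map1b (48.4 ± 8.64) and Nefm (41.9 ± 5.79) came next and overlapped one another. Nefh was the lowest, at 24.6 ± 4.4. The ranges of neighbours in this order overlapped except between Kif5a (285 to 572) and Tubb3 (135 to 226). The lengths are those of the union of all annotated exons, so genes with many isoforms, Map2 with 16449 exonic bases first among them, come out low on this scale. Opposite-strand exons of Nefm cover 1108 bases, or 32.8%, of the exonic sequence of Nefl (chromosome 14), and exons of Nt5c2 cover 14.1% of Ina (chromosome 19). The use of strand in counting is not given in the sources used here, so the levels of Nefl, Nefm and Ina are uncertain to that extent.

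**Figure D1:**
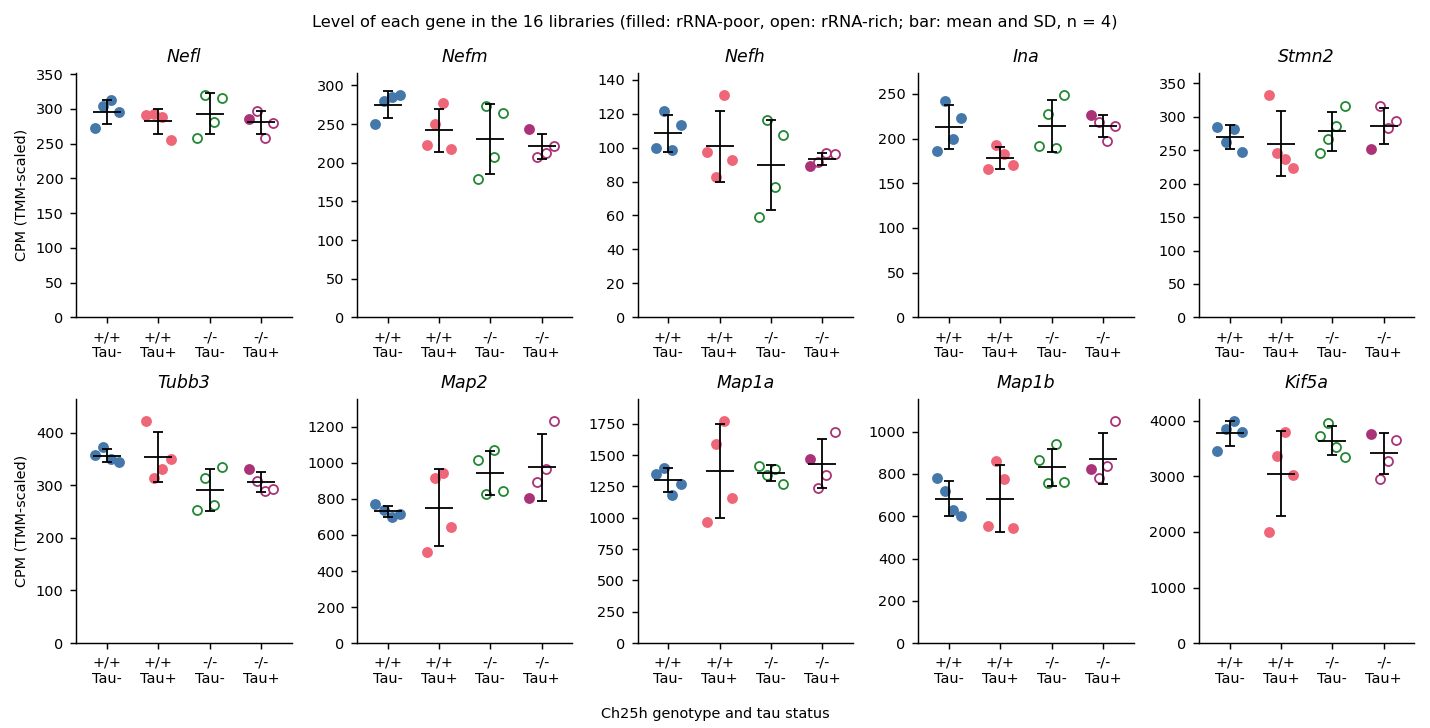
CPM (vertical axis, from 0) of each of the 10 genes in the 16 libraries, by Ch25h genotype and tau status (horizontal axis). Points are libraries, filled for rRNA-poor and open for rRNA-rich, in the order of replicates 1 to 4 within a group, and the black bar gives mean and SD (n = 4). Nefl is the steadiest gene, the Ch25h+/+ Tau+ group is the widest in Map2, Map1a, Map1b and Kif5a, and Tubb3 sits lower and Map2 higher in most Ch25h-/- libraries.

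Nefl, the light chain on which the filament is built, was the steadiest member: its highest library was only 1.25 times its lowest. In Ch25h+/+ it stood at 272, 304, 312 and 296 CPM in the 4 Tau- libraries (replicates 1 to 4, here and below) and at 291, 292, 289 and 256 CPM in the 4 Tau+ libraries. The Ch25h-/- libraries stood at 258, 319, 281 and 315 CPM in Tau- and at 286, 297, 259 and 280.2 CPM in Tau+. The 4 groups overlapped throughout. The log2 fold change with tau was -0.07 in Ch25h+/+ (95% interval -0.24 to 0.09) and -0.06 in Ch25h-/- (-0.23 to 0.10), and with Ch25h loss it was -0.01 in both tau states.

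The medium and heavy chains, whose long tails project from the filament, varied more. Nefm in Ch25h+/+ was at 249.8, 279.6, 285 and 287 CPM in Tau- and at 223, 250.1, 277 and 217 CPM in Tau+. Nefm in Ch25h-/- was at 179, 273, 207 and 265 CPM in Tau- and at 243, 207, 213 and 221 CPM in Tau+. Ch25h-/- Tau- replicates 1 and 3 were low, replicates 2 and 4 of the same group lay among the Ch25h+/+ libraries, and the groups overlapped in every comparison. The mean Ch25h loss was a log2 fold change of -0.19 (standard error 0.081, adjusted p 0.0998 in edgeR's quasi-likelihood test), which did not pass 0.05. Over 25 alternative settings it ran from -0.25 to -0.02. It passed in 1 of them, without Ch25h-/- Tau- replicate 2 (-0.25, adjusted p 0.0396, edgeR), and was nearest to 0 with GC-corrected offsets (-0.02, adjusted p 0.910, edgeR).

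Nefh in Ch25h+/+ was at 99.98, 121, 98.4 and 114 CPM in Tau- and at 97.6, 82.5, 131 and 92.5 CPM in Tau+. Nefh in Ch25h-/- was at 59.0, 116, 76.8 and 107 CPM in Tau- and at 89.4, 91.5, 96.8 and 96.1 CPM in Tau+. The same Ch25h-/- Tau- libraries, 1 and 3, were the lowest of all, and the Ch25h-/- Tau+ group was the narrowest. The ratio of Nefm to Nefl counts had a median of 0.919 in Ch25h+/+ Tau-, 0.853 in Ch25h+/+ Tau+, 0.788 in Ch25h-/- Tau- and 0.806 in Ch25h-/- Tau+. It ranged from 0.768 to 0.970 in the rRNA-poor libraries and from 0.694 to 0.856 in the rRNA-rich ones. Ratios of Nefh to Nefm overlapped between all 4 groups, at 0.330 to 0.471 over all libraries.

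Ina, the fourth neurofilament partner, lies 12.5 Mb from Ch25h on chromosome 19. In Ch25h+/+ it was at 186, 242, 199.9 and 223 CPM in Tau- and at 166, 193, 182 and 171 CPM in Tau+. In Ch25h-/- it was at 192, 227, 189 and 248 CPM in Tau- and at 226, 219, 197 and 214 CPM in Tau+. The Ch25h+/+ Tau+ group was the lowest and overlapped every group except Ch25h-/- Tau+. With tau, the log2 fold change was -0.26 in Ch25h+/+ (95% interval -0.46 to -0.06, adjusted p 0.313, edgeR) and -0.00 in Ch25h-/- (-0.20 to 0.20). The difference between them, tested as an interaction, was 0.26 (95% interval -0.03 to 0.54, adjusted p 0.99996, edgeR) and did not pass.

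Stmn2, the tubulin-binding stathmin, was at 285, 262, 282 and 247 CPM in Ch25h+/+ Tau- and at 332, 246, 237 and 224 CPM in Ch25h+/+ Tau+. Ch25h-/- libraries had 246, 266, 286 and 315 CPM in Tau- and at 252, 315, 284 and 293 CPM in Tau+. Its highest library was Ch25h+/+ Tau+ replicate 1, a group that also held the 2 lowest libraries of the 16. The log2 fold change with Ch25h loss in Tau+ was 0.14 (standard error 0.111, adjusted p 0.467, edgeR). Leaving out 1 library gave 0.06 (without Ch25h+/+ Tau+ replicate 4) to 0.27 (without Ch25h+/+ Tau+ replicate 1, adjusted p 0.113, edgeR). It was 0.29 with limma-voom, which was run with sample quality weights throughout (adjusted p 0.0392), and -0.05 with library class in the fit.

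Tubb3, the beta-tubulin of neurons, fell with Ch25h loss in the mean over both tau states. In Ch25h+/+ it stood at 357, 372, 349 and 345 CPM in Tau- and at 422, 313, 331 and 349 CPM in Tau+. Without Ch25h it stood at 252, 313, 263 and 334 CPM in Tau- and at 331, 309, 289 and 293 CPM in Tau+. In Tau-, every Ch25h-/- library lay below every Ch25h+/+ library, while in Tau+ the groups overlapped at 313 to 331 CPM. The mean log2 fold change was -0.25 (standard error 0.069, adjusted p 0.0184, edgeR). With library class in the fit it was -0.11 with a standard error of 0.156 (adjusted p 0.9995, edgeR), and with GC-corrected offsets -0.08 (adjusted p 0.526, edgeR). The 1 rRNA-poor Ch25h-/- library, Tau+ replicate 1, was at 331 CPM, the highest of its group.

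Map2, the dendritic microtubule-associated protein, rose with Ch25h loss in the same mean and was the most variable member, with a highest library 2.45 times the lowest. In Ch25h+/+ it was at 771, 737, 698 and 719 CPM in Tau- and at 503, 917, 944 and 645 CPM in Tau+. Without Ch25h it was at 1019, 830.0, 1072 and 846 CPM in Tau- and at 806, 896, 966 and 1232 CPM in Tau+. In Tau-, every Ch25h-/- library lay above every Ch25h+/+ library; in Tau+ the groups overlapped, since Ch25h+/+ replicates 2 and 3 were as high as Ch25h-/- libraries. The mean log2 fold change was 0.37 (standard error 0.116, adjusted p 0.0329, edgeR). It was 0.05 with library class in the fit (standard error 0.255), 0.31 with GC-corrected and 0.17 with length-corrected offsets, and passed in none of these fits. Tau+ replicate 1, the rRNA-poor Ch25h-/- library, had 806 CPM, the lowest of the 8 Ch25h-/- libraries.

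Map1a, whose product binds microtubules of mature neurons, was at 1353, 1395, 1184 and 1266 CPM in Ch25h+/+ Tau- and at 968, 1590.2, 1771 and 1160.5 CPM in Ch25h+/+ Tau+. The Ch25h-/- libraries had 1414, 1340.1, 1392 and 1269.8 CPM in Tau- and at 1466, 1236, 1339 and 1686 CPM in Tau+. Its groups overlapped in every comparison, and the mean Ch25h loss was 0.06 (95% interval -0.15 to 0.27). Map1b, its relative from the developing axon, rose with Map2. In Ch25h+/+, Map1b was at 781, 718, 629.9 and 602 CPM in Tau- and at 554, 860.1, 776 and 543 CPM in Tau+. In Ch25h-/-, Map1b was at 865, 758, 939.9 and 761 CPM in Tau- and at 822, 783, 837 and 1050.2 CPM in Tau+. The groups overlapped in both tau states. The mean log2 fold change was 0.32 (standard error 0.099, adjusted p 0.0319, edgeR), and 0.22 with library class (standard error 0.225), 0.25 with GC-corrected and 0.12 with length-corrected offsets, where it did not pass. The rRNA-poor Ch25h-/- library had 822 CPM, above 3 of the 7 rRNA-rich Ch25h-/- libraries and above 7 of the 8 Ch25h+/+ libraries.

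Kif5a, the axonal kinesin motor, was at 3455, 3856, 3995 and 3795 CPM in Ch25h+/+ Tau- and at 1995, 3368, 3793 and 3027 CPM in Ch25h+/+ Tau+. The Ch25h-/- libraries were at 3730.1, 3965, 3525 and 3357 CPM in Tau- and at 3768, 2949, 3279 and 3655 CPM in Tau+. Ch25h+/+ Tau+ replicate 1 stood apart at 1995 CPM, and of the other 3 libraries of its group only replicate 3 lay within the Ch25h+/+ Tau- range. The tau effect in Ch25h+/+ was -0.31 (95% interval -0.60 to -0.02, adjusted p 0.489, edgeR) and moved between -0.43 and -0.15 over the alternative settings, without passing in any. In Ch25h-/- it was -0.09 (-0.39 to 0.20).

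**Figure D2:**
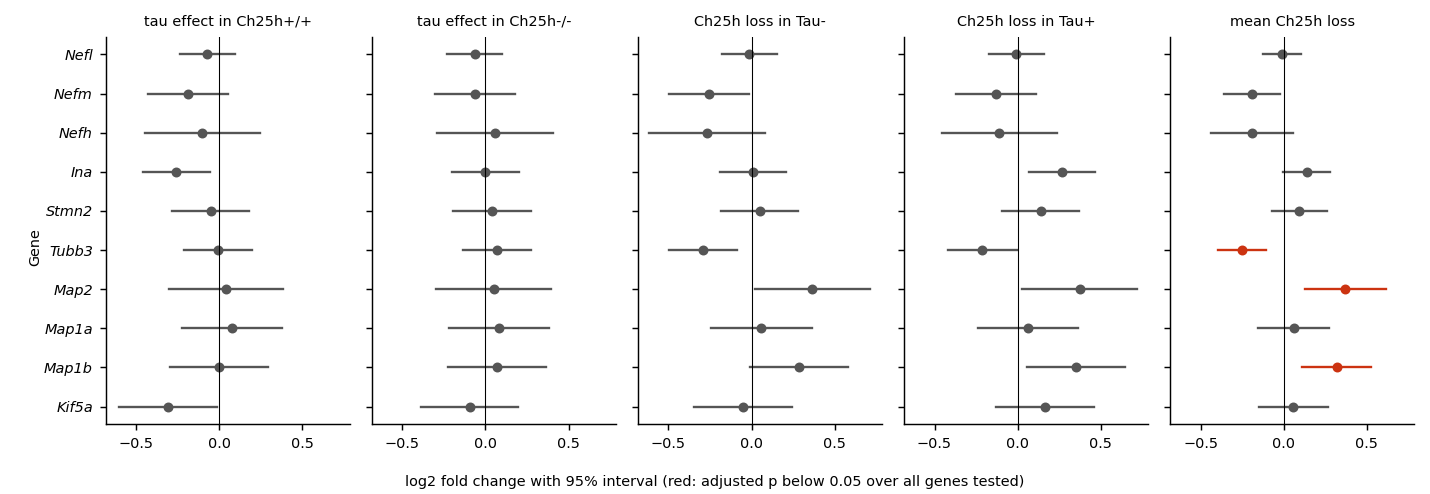
Log2 fold change (horizontal axis) with 95% interval for each gene (vertical axis) in 5 comparisons; positive values are higher with tau or without Ch25h, and red marks an adjusted p below 0.05 over all genes tested. Red appears only for Tubb3, Map2 and Map1b in the mean Ch25h loss, and the tau effects in both genotypes lie around 0, with Ina and Kif5a lowest in Ch25h+/+.

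Over the list as a whole, 0 of 10 members passed for the tau effect in Ch25h+/+ (edgeR), where 1.56% of all genes tested passed. These 277 genes became 160 without Ch25h+/+ Tau+ replicate 4, 424 with DESeq2 and 498 with limma-voom. Ina and Kif5a had an unadjusted p below 0.05, and DESeq2 and limma-voom called 0 members as well. The members' median log2 fold change was -0.06, against -0.01 over all genes. It was -0.01 without Ch25h+/+ Tau+ replicate 4 and -0.11 with limma-voom. For the tau effect in Ch25h-/-, 0 of 10 passed (edgeR, DESeq2 and limma-voom), none had an unadjusted p below 0.05, and 0.0395% of all genes passed. The median was 0.04 for the members and 0.01 for all genes. For the members it turned to -0.04 without Ch25h-/- Tau- replicate 1 and was 0.06 with limma-voom. The widest 95% intervals of these tau effects belonged to Nefh, -0.45 to 0.24 in Ch25h+/+ and -0.29 to 0.40 in Ch25h-/-. The mean tau effect called 0 of 10 with all 3 tools, with 0 at an unadjusted p below 0.05, and 0.857% of all genes.

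The interaction of tau and Ch25h loss called 0 of 10 members with all 3 tools, none with an unadjusted p below 0.05, against 0.0338% of all genes (edgeR). These 6 genes became 0 without Ch25h-/- Tau+ replicate 3 or 4 and 22 without Ch25h+/+ Tau+ replicate 1, and DESeq2 called 55. All 10 members' values were above 0, from 0.00 for Map1a to 0.26 for Ina, with a median of 0.09, whereas 9525 of 17736 genes were above 0 with a median of 0.02. Leaving out 1 library moved the members' median between 0.02 and 0.14. Of the general neuron markers, 7 of 7 were also above 0 in the interaction, with a median of 0.09. None of the 5 astrocyte (median -0.26), 5 microglia (-0.39) and 4 endothelial markers (-0.18) was above 0, and none was called. Under the 25 alternative settings, Nefl, Nefh, Map2, Map1a and Map1b each changed sign at least once.

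For Ch25h loss in Tau-, edgeR called 0 of 10 members and 1.03% of all genes. Tubb3, Map2 and Nefm had an unadjusted p below 0.05, and DESeq2 and limma-voom each called 1 member, Tubb3, among 1124 and 1388 of the 17736 genes. The share of all genes was unsteady: edgeR's 182 genes became 3 without Ch25h+/+ Tau- replicate 1, and leaving out Ch25h+/+ Tau+ replicate 1 made them 1306. The groups did not overlap in 2 of 10 members, Tubb3 and Map2, and in 16.2% of all genes. For Ch25h loss in Tau+, edgeR called 0 of 10 members and 3.55% of all genes, with Ina, Tubb3, Map2 and Map1b at an unadjusted p below 0.05. DESeq2 called 0 members there, among 1494 genes of 17736, and limma-voom called 1, Stmn2, among 1883. Here edgeR's 629 genes became 108 without Ch25h+/+ Tau+ replicate 4, and leaving out Ch25h-/- Tau+ replicate 1 made them 1691. The groups did not overlap in 1 of 10 members, Ina, and in 10.2% of all genes. Both comparisons of Ch25h loss gave values of like size for Map2 (0.36 in Tau- and 0.37 in Tau+) and Map1b (0.28 and 0.35), while Ina was at 0.01 in Tau- and 0.27 in Tau+.

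The mean Ch25h loss, 8 libraries against 8, called 3 of 10 members, where 20.3% of all genes passed. By direction, 2 members were among the 9.55% of genes that were higher and 1 was among the 10.8% that were lower. DESeq2 and limma-voom called the same 3 members, among 4218 and 4557 of the 17736 genes. The members' median was 0.06, against 0.00 over all genes. Leaving out 1 library gave a members' median of -0.005 (without Ch25h+/+ Tau+ replicate 1) to 0.095 (without Ch25h+/+ Tau+ replicate 3). With limma-voom and with length-corrected offsets it was 0.014. With library class as a covariate, 0 members and 0 of 17736 genes passed (edgeR). Ch25h itself, at 0 counts in every Ch25h-/- library, was called without that covariate (adjusted p 0.000542, edgeR) and not with it. The standard errors of Tubb3, Map2 and Map1b were all larger in that fit, so a call lost there says little about the size of a difference. Markers of other cells moved in this comparison as well: 2 of 5 oligodendrocyte markers were called lower (median -0.35), 2 of 5 astrocyte markers were called lower (median -0.10), and of 5 microglia markers 2 were called lower and 1 higher (median -0.24). Of 5 striatum, 6 inhibitory neuron and 4 endothelial markers 1 each was called lower (medians -0.39, -0.08 and -0.04). Of the 7 general neuron markers 1 was called higher and 1 lower (median -0.05), and of the 5 excitatory neuron markers likewise 1 and 1 (median 0.14). Of 6 deep-layer projection neuron markers and of 6 frontal cortex markers, lists that share Fezf2, 2 each were called higher and none lower (medians 0.07 and 0.03). Their part in the members' values was not tested.

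The mean Ch25h loss was read beside base composition. GC content was that of the longest transcript of each gene, protein-coding ones first, whereas exonic length covers all annotated exons. Tubb3, Nefm and Nefh, with 57.9%, 57.8% and 58.4% GC, were the 3 lowest, and Map2 and Map1b, with 47.8% and 47.6%, were the 2 highest. Across the 10 genes the Spearman correlation of the log2 fold change was -0.72 with GC content and 0.60 with exonic length, given as a description, as genes are not independent replicates. Over 17607 tested genes the same correlations were -0.58 and 0.27. With the genes cut by GC content into 10 bins of equal size, the bin centred on 56.9% GC had a median log2 fold change of -0.15 and the bin centred on 47.2% had 0.08, so Nefm (-0.19), Nefh (-0.19) and Tubb3 (-0.25) lay near the level of other genes of like GC content, and Map2 and Map1b lay above it. Ina (55.5% GC, log2 fold change 0.14), Map1a (54.8%, 0.06) and Kif5a (53.8%, 0.06) stood above 0, while the bins centred on 52.9% and 54.8% had medians of -0.07 and -0.11. Nefl (48.8%, -0.01) and Stmn2 (46.1%, 0.09) lay close to the bins centred on 49.0% (0.02) and 45.3% (0.12). With GC-corrected offsets, where 612 of 17736 genes were called, Ina was the only member called (log2 fold change 0.27, adjusted p 0.0414, edgeR). Map2 and Map1b have the longest exonic sequence of the 10, and of 10 bins by exonic length the longest had a median of 0.17. How far base composition, length and library class account for these differences was not tested.

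**Figure D3:**
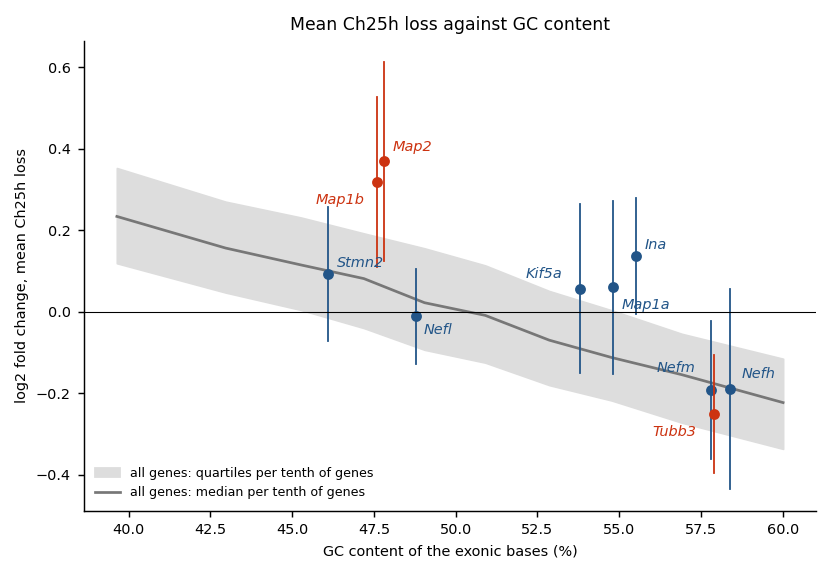
Log2 fold change of the mean Ch25h loss (vertical axis) against GC content in percent (horizontal axis) for the 10 genes, with 95% intervals and red for adjusted p below 0.05. GC content, labelled as that of the exonic bases, is that of the longest transcript of each gene, protein-coding ones first. The grey line and band give the median and quartiles of all genes in 10 bins by GC content. The grey line falls from 0.23 to -0.22, Nefm, Nefh, Tubb3, Nefl and Stmn2 lie close to it, and Map2, Map1b, Ina, Map1a and Kif5a lie above it.

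**Figure D4:**
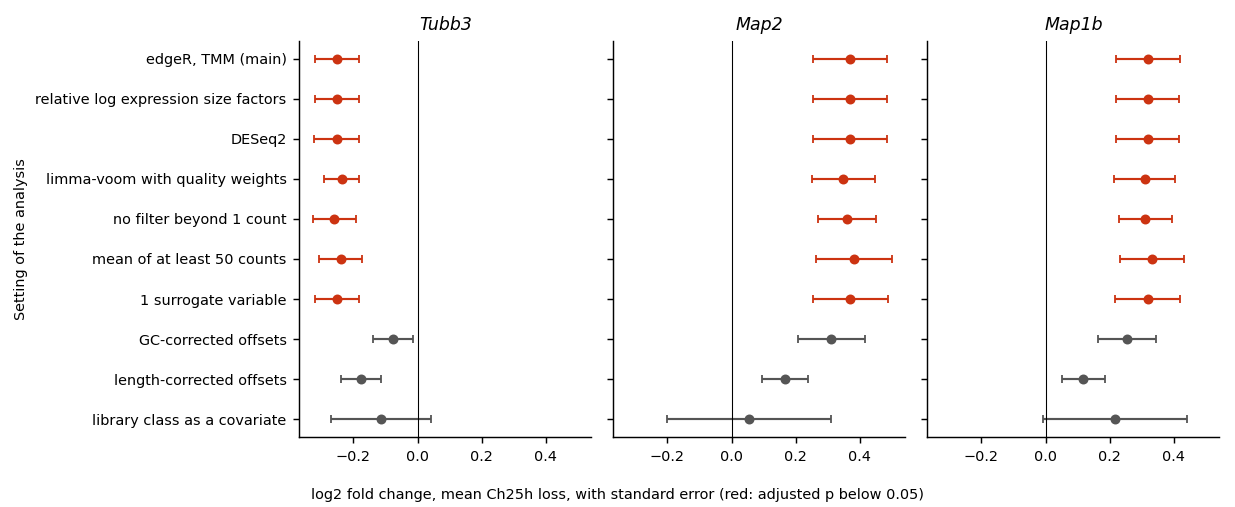
Log2 fold change of the mean Ch25h loss with its standard error (horizontal axis) for the 3 genes called, under the edgeR analysis and 9 alternative settings (vertical axis); red marks an adjusted p below 0.05. All 3 are red in the upper 7 settings and grey with GC-corrected offsets, length-corrected offsets and the library-class covariate.

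Single libraries also decided the calls of Map2 and Map1b. When each library was left out in turn, Tubb3 kept its call in 16 of 16 fits, between -0.30 and -0.20. Map2 kept it in 8 of 16 fits, between 0.29 and 0.43. Its call was lost without Ch25h+/+ Tau- replicates 2, 3 or 4, Ch25h+/+ Tau+ replicate 4, Ch25h-/- Tau- replicates 1 or 3, or Ch25h-/- Tau+ replicates 3 or 4. Map1b kept its call in 9 of 16 fits, between 0.26 and 0.37. It lost it without Ch25h+/+ Tau- replicates 3 or 4, Ch25h+/+ Tau+ replicates 1 or 4, Ch25h-/- Tau- replicates 1 or 3, or Ch25h-/- Tau+ replicate 4. The highest adjusted p in these fits was 0.0795 for Map2 and 0.0747 for Map1b (edgeR).

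The members also moved with each other from library to library. This was read within each library class for a few chosen pairs, and the adjustment over 8 relations does not cover the choice of pairs. Libraries were permuted across the genotype groups of a class, so differences between groups enter these values. Map2 and Map1b varied together, with Pearson's r of 0.85 in the 9 rRNA-poor libraries (exact permutation p 0.00123, adjusted 0.00491 over 8 relations; Spearman's rho 0.87, exact permutation p 0.00451, adjusted 0.0120) and 0.99 in the 7 rRNA-rich ones (exact permutation p 0.000198, adjusted 0.00159; rho 1, exact permutation p 0.000397, adjusted 0.00317). Without the 2 libraries farthest from the median of Map2, r was 0.92 and 0.98. Both genes have a long exonic sequence (16449 and 15846 bases) and like GC content (47.8% and 47.6%). Libraries differed in how gene level followed length and GC content, and the part of that in this relation was not tested.

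Nefm and Nefh had r of 0.90 in the rRNA-rich libraries (exact permutation p 0.00456, adjusted 0.00913; rho 0.96, exact permutation p 0.00278, adjusted 0.0111). In the rRNA-poor libraries r was 0.62 (exact permutation p 0.0793, adjusted 0.0907; rho 0.57, exact permutation p 0.121, adjusted 0.121). Without the 2 farthest libraries r was 0.94 and 0.57. Nefl and Nefm had r of 0.73 in the rRNA-poor libraries (exact permutation p 0.0192, adjusted 0.0307; rho 0.80, exact permutation p 0.0138, adjusted 0.0277) and 0.85 in the rRNA-rich ones (exact permutation p 0.0242, adjusted 0.0323; rho 0.71, exact permutation p 0.0881, adjusted 0.101). Both fell, to 0.43 and 0.47, without the 2 farthest libraries, and the exons of both genes overlap. Leaving out the extreme libraries narrows the range, which can lower r by itself, so the fall cannot tell whether this relation rests on those libraries.

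Tubb3 and Map2 ran against each other, with r of -0.87 in the rRNA-poor libraries (exact permutation p 0.00391, adjusted 0.00913; rho -0.68, exact permutation p 0.0503, adjusted 0.0805) and -0.61 in the rRNA-rich ones (exact permutation p 0.148, adjusted 0.148; rho -0.71, exact permutation p 0.0881, adjusted 0.101). Without the 2 farthest libraries r was -0.52 and -0.60. The relation in the rRNA-poor libraries was thus weaker without them, and the narrower range limits the reading of that fall here too. Ch25h+/+ Tau+ replicate 1 had the highest Tubb3 and the lowest Map2, Map1a and Kif5a of all 16 libraries. The same library had the most negative correlation of gene level with exonic length across genes (Spearman -0.40, against -0.19 to 0.26 in the other 15). The part of that trend in the low values of these long transcripts was not tested.

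**Figure D5:**
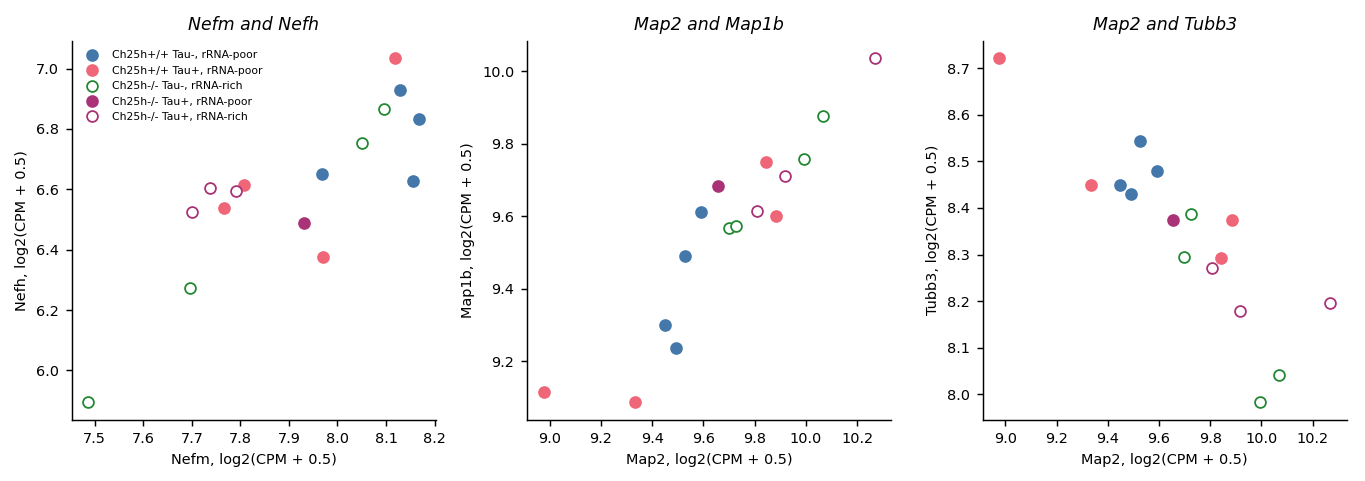
Log2(CPM + 0.5) of Nefh against Nefm, of Map1b against Map2 and of Tubb3 against Map2 in the 16 libraries, coloured by group, filled for rRNA-poor and open for rRNA-rich. Map1b follows Map2 in both kinds of library (r of 0.85 and 0.99), Tubb3 runs against Map2, and Ch25h+/+ Tau+ replicate 1 is the point at the far left of both Map2 panels.

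By likeness of pattern to the mean log2 level of Nefl, Nefm and Nefh over the 16 libraries, the nearest of 11089 other genes were Scn4b (Pearson's r 0.92), a sodium channel beta subunit, Kcns3 (0.91), a potassium channel subunit, Brinp1 (0.90), Pnkd (0.90) and Lynx1 (0.89), which modulates nicotinic acetylcholine receptors. These are descriptions, and the libraries share depth and GC trends. Of the other members, Tubb3 reached 0.61 and Ina 0.43, while Map2 (-0.32) and Map1b (-0.33) ran the other way.

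Other cytoskeleton genes were read from lists of related genes. For the tau effect in Ch25h+/+, 1 of 7 other intermediate filament genes rose: Vim (vimentin of glia and vessels), from 37.9 to 99.4 CPM, a log2 fold change of 1.39 (adjusted p 0.0102, edgeR). That call was lost without Ch25h+/+ Tau- replicate 1. Gfap, also an intermediate filament gene, was not among these 7 and is given with the astrocyte markers below. No gene passed among 13 other tubulin, 23 microtubule-associated protein, 3 stathmin, 16 kinesin, 17 dynein and dynactin, 12 axon initial segment and 15 microtubule enzyme genes, nor among the 10 of 12 axon growth and injury genes that were tested. In these 8 lists 1, 0, 0, 3, 1, 2, 1 and 1 genes had an unadjusted p below 0.05. The medians of the 9 lists ran from -0.05 to 0.19. For the tau effect in Ch25h-/-, 0 genes of these 9 lists passed (edgeR), with 1 tubulin gene and 1 growth and injury gene at an unadjusted p below 0.05. Astrocyte markers summed to 863 to 908 CPM in Ch25h+/+ Tau- and 1170.2 to 2282 CPM in Ch25h+/+ Tau+, and microglia markers to 252 to 268 and 318 to 413 CPM. Of 5 astrocyte markers 1 was called higher, Gfap (log2 fold change 2.46), and the list's median was 0.19; of 5 microglia markers 3 were called higher, with a median of 0.50. The general neuron markers were at 6244 to 6723 and 6036 to 6614 CPM in the same groups. Of 5 thalamus markers 1 was called higher (median 0.14). Of 5 striatum markers 0 were above 0 (median -0.65), with 3 at an unadjusted p below 0.05 and 0 called. The part of these shifts in the levels of Ina, Kif5a or Vim was not tested.

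With Ch25h loss in Tau+, Vim fell by 1.37 and Lmna, a nuclear lamin, by 0.38 on the log2 scale (adjusted p 0.0145 and 0.0497, edgeR). These were 2 of the same 7 intermediate filament genes, a list without Gfap. Of the 23 microtubule-associated protein genes Map9 rose by 0.35 and Map7d1 fell by 0.29. Atf3, a transcription factor of injured neurons and other stressed cells, fell from 2.78 to 0.636 CPM, a log2 fold change of -2.09 (adjusted p 0.0162, edgeR), the only called gene of 10 axon growth and injury genes tested. With Ch25h loss in Tau-, Dynll2, a dynein light chain, fell by 0.49 (adjusted p 0.0320, edgeR), 1 of 17 dynein and dynactin genes. With Ch25h loss in Tau+, 4 of 5 microglia markers and 1 of 5 astrocyte markers were called lower (medians -0.43 and -0.23). Of 5 thalamus markers 1 was called lower (median 0.05), and of 6 deep-layer projection neuron markers 1 was called higher (median 0.15). All 5 oligodendrocyte markers were below 0 without a call (median -0.35). The part of these markers in Vim, Lmna or Atf3 was not tested. None of the 6 calls of the named genes held with library class in the fit. The log2 fold change of Vim in Tau+ was as large there (-1.42) and that of Atf3 was -1.51, while Lmna (-0.14), Map7d1 (-0.12), Map9 (0.19) and Dynll2 in Tau- (-0.12) were smaller. With GC-corrected offsets Vim (-1.26) and Atf3 (-2.03) in Tau+ held. Leaving out 1 library in turn, Vim kept its call in 15 of 16 fits and lost it without Ch25h-/- Tau+ replicate 3. Atf3 kept its call in 13 and lost it without Ch25h+/+ Tau+ replicate 4 or Ch25h-/- Tau+ replicates 3 or 4. Map9 kept its call in 11 fits, Dynll2 in 7, Map7d1 in 4 and Lmna in 3.

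In the mean Ch25h loss, where 20.3% of all genes passed, 3 of 16 kinesin genes were higher and 3 lower. Kif2a rose by a log2 fold change of 0.22 and Kif21a by 0.17, and the light chain Klc1 fell by 0.19. Kif2a turned to -0.03 both with library class and with GC-corrected offsets. Of 23 microtubule-associated protein genes 5 were higher and 2 lower, among them Map9 (0.28), Map7d1 (-0.31) and Map1s (-0.29), a short relative of Map1a and Map1b. Both called stathmins of 3, Stmn3 (-0.29) and Stmn4 (-0.17), were lower, and Tubb4a (-0.20) was the only tubulin of 13 called. Median log2 fold changes were 0.08 for the kinesins, 0.01 for the microtubule-associated proteins, -0.17 for the stathmins and -0.12 for the tubulins, against 0.00 over all genes. All 13 tubulins and all 3 stathmins were below 0.

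Of 17 dynein and dynactin genes 1 was higher, Bicd1 (0.43), and 3 were lower, with Dynll2 at -0.38 and Dctn1 at -0.18. Of the axon growth and injury genes 1 was higher, Cacna2d1 (0.36), and 3 were lower, with Basp1 at -0.24 and Atf3 at -0.98. Of 15 microtubule enzyme genes 2 were higher and 3 lower, among them Agtpbp1 (0.22), which trims glutamates from tubulin tails, the deacetylase Sirt2 (-0.21) and Svbp (-0.34). None of 12 axon initial segment and spectrin genes passed, with 5 at an unadjusted p below 0.05. Of the 20 genes named for this comparison, counting Vim (-0.69) and Lmna (-0.40), 12 kept their call in all 16 fits that left out a library. With GC-corrected offsets 1 of the 20, Dynll2, kept it, and with library class 0 did. Some values stayed as large without a call: Vim was at -0.76 and Svbp at -0.34 with library class, and Vim at -0.60 and Atf3 at -0.93 with GC-corrected offsets. Adjusted p-values of the 20 were 0.00297 to 0.0436 (edgeR).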

How the data were processed

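Bulk RNA-seq of 16 libraries was analysed. The authors deposited raw counts per gene symbol, 1 column per library. Per the submitters' processing notes, STAR 2.7 and GRCm38 (mm10) were used; counting program, annotation and strand are not given in the sources used here. Per the labels' protocols, RNA was column-purified and libraries came from a SMARTer mRNA kit.

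The members and lists were chosen with earlier results of these data known. Genes were filtered with filterByExpr and scaled by TMM and tested two-sided by the quasi-likelihood F test of edgeR 4.0.16 (R 4.3.3), in 1 fit of 4 group means, with Benjamini-Hochberg adjustment over all 17736 genes and a threshold of 0.05. Alternatives used DESeq2 1.42.0, limma-voom with sample quality weights (limma 3.58.1), sva 3.50.0, other scaling and filters, library class (rRNA-rich above 1000 CPM), GC-corrected offsets (loess), and leaving out each library. Length-corrected offsets and a fit of the 9 rRNA-poor libraries were chosen after seeing the data. Named genes were all members, at most 3 called genes of a related list per comparison, and the 5 genes most like the neurofilament chains among those averaging 3 or more on the log2 CPM scale. Exonic length (union of all exons) and GC content (longest transcript, protein-coding ones first) came from GENCODE M21 and promoters from RefSeq. Depth was 15530352 to 25602500 counts, and members had 979 to 96321 counts a library. Counting error was not set against the spread between libraries.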

Additional observations from a re-analysis of the deposited data

Results flagged for a closer look

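Nefl in Ch25h+/+ Tau+ replicate 4 stood at 256 CPM, while the other 3 libraries of its group lay between 289 and 292 CPM. The gap took 0.910 of the group's range, above the 95% limit of Dixon's gap test for 4 samples. Each of the 10 genes was read in each of 4 groups in this way, and chance flags about 1 group in 20, so a single flag is no more than chance gives. The same library had the highest summed astrocyte markers, 2282 CPM; the part of that in the Nefl value was not tested.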

How the results depend on the processing

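The 0 members called for the tau effect in Ch25h+/+, the tau effect in Ch25h-/-, the interaction and the mean tau effect stayed at 0 under every alternative run. For Ch25h loss in Tau-, the count of 0 became 1 with DESeq2, 1 with limma-voom and quality weights (both Tubb3) and 1 when the 8 libraries compared were fitted alone (Map2), in fits that called 1124, 1388 and 1229 of all genes instead of 182; GC-corrected offsets gave 10 and library class 0 of all genes. Leaving out single libraries gave 0 to 1 members and 3 to 1306 of all genes. For Ch25h loss in Tau+ it became 1 with limma-voom and quality weights (Stmn2), which called 1883 of all genes instead of 629; GC-corrected offsets gave 180 and library class 10. Leaving out single libraries gave 0 to 1 members and 108 to 1691 of all genes. For the mean Ch25h loss the 3 members called became 0 with library class, 1 with GC-corrected offsets (Ina) and 0 with length-corrected offsets, and 1 to 4 when single libraries were left out. The count of all genes called there fell from 3603 to 612 with GC-corrected offsets, 2638 with length-corrected offsets and 0 with library class. Directions turned for Stmn2 with Ch25h loss in Tau+ (-0.045 with library class, -0.041 in the 9 rRNA-poor libraries), and in the mean Ch25h loss for Kif2a (-0.028 with library class, -0.026 with GC-corrected offsets), Dctn1 (0.015 with GC-corrected offsets) and Agtpbp1 (-0.024 with length-corrected offsets); the cause was not tested. Uncalled members turned too in at least 1 setting. With Ch25h loss in Tau- these were Nefl, Ina, Stmn2 (down to -0.19), Map1a (down to -0.09) and Kif5a (up to 0.14). With Ch25h loss in Tau+ they were Nefl, Nefm (up to 0.04), Nefh (up to 0.08), Stmn2 and Map1a (down to -0.09). In the mean Ch25h loss they were Nefl, Stmn2 (down to -0.12), Map1a (down to -0.09) and Kif5a (down to -0.02). Small tau effects crossed 0 as well, for Stmn2, Tubb3, Map2, Map1a and Map1b in Ch25h+/+, for Nefm, Nefh, Ina, Stmn2, Map2, Map1a and Map1b in Ch25h-/-, and for Nefh, Stmn2, Tubb3, Map2 and Map1b in the mean, with no call. Within the 9 rRNA-poor libraries, Ch25h loss is represented by a single library, and no Ch25h+/+ library was rRNA-rich. No paired analysis was possible because the labels give no pairing and replicates were numbered by accession order.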
